A study of Mus musculus with 6 samples.

Results

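The genes described here are 10 heat shock proteins, taken by symbol: the Hsp70 chaperones Hspa1a, Hspa1b and Hspa8, the Hsp110 protein Hsph1, the J protein Dnajb1, the Hsp90 chaperones Hsp90aa1 and Hsp90ab1, and the small heat shock proteins Hspb1, Hspb7 and Cryab. Every probe annotated to 1 of these symbols was taken, which gave 17 probes for 9 genes among 34885 probes that carry 1 gene symbol and 45281 probes in all. Hsp90ab1 had no probe in the annotation used and was not analysed here. Total RNA of mouse hearts was labelled with biotin and hybridised to 6 Illumina bead arrays. All mice were on the FvB background and 8 weeks old by their sample labels, although the series' design text gives the age in years, and hearts were taken 3 weeks after surgery. The 4 groups were wild-type mice after sham surgery (1 array), wild-type mice after TAC (2 arrays), JMJD2A transgenic mice after sham surgery (1 array) and JMJD2A transgenic mice after TAC (2 arrays). TAC is the surgical narrowing of the aorta that makes the left ventricle pump against a raised pressure, and JMJD2A, encoded by Kdm4a, is a histone lysine demethylase. The transgene is described as specific to the heart, and the sources used here do not name the promoter that drives it. The labels do not say whether arrays of a group came from separate mice. The p-values thus measure the spread between arrays, which may be technical in part. In whole hearts, fewer cells of a type and less RNA per cell cannot be told apart.

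Heat shock proteins are chaperones, which hold or refold other proteins that have lost their shape. In the heat shock response, unfolded protein frees the transcription factor Hsf1 from chaperones; Hsf1 then forms trimers that bind repeats of the letters GAA in alternating direction, called heat shock elements, in front of chaperone genes. Hspa1a and Hspa1b are the strongly inducible Hsp70 genes, Hspa8 is the constitutive one, Dnajb1 delivers substrates to Hsp70 and stimulates its ATPase, and Hsph1 exchanges its nucleotide. Hsp90aa1 is the more inducible cytosolic Hsp90. Hspb1, Hspb7 and Cryab do not use ATP, are abundant in heart muscle, and associate with sarcomeric or cytoskeletal proteins.

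The promoters are shown because heat shock elements are the letters through which this family is known to be induced, and because they tell which members share one. RefSeq (GRCm38.p6, the C57BL/6J reference and not the FvB strain of these mice) gave windows from 250 bases before to 50 bases after the start for 6 members: Hspa1a, Hspa1b, Hsph1, Dnajb1, Hspb1 and Hspb7. Cryab, Hspa8, Hsp90aa1 and Hsp90ab1 had no entry. The stretch from -130 to -1 is printed for the 4 members with a match to a pair of units, 5′ to 3′ on the gene's own strand, with the matched letters in capitals.
Hspa1a, chr17:34972157-34972286, minus strand: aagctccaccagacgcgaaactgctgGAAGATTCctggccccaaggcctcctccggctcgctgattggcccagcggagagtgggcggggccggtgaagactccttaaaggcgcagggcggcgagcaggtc
Hspa1b, chr17:34959239-34959368, minus strand: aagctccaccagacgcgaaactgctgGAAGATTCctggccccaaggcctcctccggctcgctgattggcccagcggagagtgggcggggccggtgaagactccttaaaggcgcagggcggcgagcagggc
Hspb1, chr5:135887789-135887918, plus strand: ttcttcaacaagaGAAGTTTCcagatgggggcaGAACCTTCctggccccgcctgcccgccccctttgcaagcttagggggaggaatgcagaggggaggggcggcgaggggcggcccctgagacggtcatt
Hsph1, chr5:149636316-149636445, minus strand: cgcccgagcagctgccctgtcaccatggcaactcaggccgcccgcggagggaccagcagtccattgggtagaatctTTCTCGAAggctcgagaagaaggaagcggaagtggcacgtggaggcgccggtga

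The motifs searched were the pairs GAANNTTC and TTCNNGAA, each of which reads the same on both strands, and the triplets GAANNTTCNNGAA and TTCNNGAANNTTC, which contain those pairs. Among 32851 RefSeq windows of this length, 7.86% held GAANNTTC, 8.52% held TTCNNGAA and 0.603% held a triplet. Hspa1a and Hspa1b carry the same GAAGATTC from -104 to -97, and their printed stretches are identical at 129 of 130 bases. Over the 250 bases before the start the 2 genes are identical at 98.8% of positions. Hspb1 carries GAAGTTTC from -117 to -110 and GAACCTTC from -97 to -90. Hsph1 carries TTCTCGAA from -54 to -47 and, beyond the printed stretch, the triplet TTCTGGAAAGTTC from 15 to 27 bases after the start, the 1 triplet among these members. RefSeq lists a second Hsph1 start, from which the same letters lie at -33 to -26 and at 36 to 48. No such letters were found in the windows of Dnajb1 and Hspb7. Matches are a description of letters and not of binding.

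The arrays resembled each other closely across all genes, with pairwise correlations of log2 intensity from 0.984 to 0.994, and the 2 transgenic TAC arrays were the least alike. Expression was tested with limma for 11167 genes whose brightest probe exceeded an intensity of 58.7, the middle of all probes with 1 symbol, and all 9 members with a probe passed that filter. Kdm4a read 6.45 to 6.75 on the log2 scale by its tested probe and did not separate the genotypes. A second probe read 7.03 and 6.86 on the transgenic sham array and transgenic TAC array 1 against 6.40 to 6.49 in wild type, but 6.32 on transgenic TAC array 2; whether these probes read the transgene is not known. Xist, made by the inactive X chromosome of female cells, was low on wild-type TAC array 2 (log2 5.38) and on the transgenic sham array (5.41) and between 10.36 and 11.03 elsewhere, so the arrays differ in a way their labels do not give. Markers of cardiomyocytes were high and even, with a summed intensity over 6 of 7 markers with a probe of 61880 to 67658. The sum of 3 atrial markers ran from 568 to 7715, highest on wild-type TAC array 1, and that of 4 smooth muscle markers was 8723 to 16118 on wild-type and 3029 to 4237 on transgenic arrays. Summed markers of skeletal muscle (195 to 221) and macrophages (510 to 611) stayed low, those of fibroblasts ran from 15828 to 24651, and those of endothelial cells from 1807 to 2819. The part of these marker differences in the results below was not tested.

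Hspa1a gave the widest range of any member. By its brightest probe it read 147 on the wild-type sham array, 179 and 152 on the wild-type TAC arrays, 656 on the transgenic sham array, and 237 and 249 on the transgenic TAC arrays. Thus the transgenic sham array stood far above the rest, the transgenic TAC arrays came next, and all 3 transgenic arrays lay above all 3 wild-type arrays. The sham pair differed 4.48-fold, which ranked 9 among the differences of 11167 genes sorted from the highest, but it sets 1 array against 1 and has no test. Across both surgeries Hspa1a was 1.09 ± 0.29 higher in transgenic hearts (log2 difference ± SE, 3 arrays against 3; 95% interval 0.44 to 1.74), a 2.13-fold difference that did not pass (limma, adjusted p = 0.149). Without the transgenic sham array this difference was 0.56 (adjusted p = 0.720), a value that then comes from the TAC arrays alone. The transgenic sham array is 1 of the 2 arrays with low Xist, so genotype and Xist level cannot be told apart in the sham pair. The other, wild-type TAC array 2, read 152 and differs from it in genotype and surgery as well. The part of the Xist level in the Hspa1a values was not tested. Without both arrays with low Xist, the Hspa1a difference was 0.44.

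After TAC the 2 transgenic arrays exceeded the 2 wild-type arrays by 0.56 ± 0.21 (adjusted p = 0.740). Within the transgenic hearts the TAC arrays were lower than the sham array by a log2 difference of -1.43 ± 0.26 (95% interval -2.02 to -0.85), whereas wild-type hearts gave 0.17 ± 0.26. The difference between those responses was -1.60 ± 0.36, and neither it (adjusted p = 1.00) nor the transgenic response (adjusted p = 0.713) passed among 11167 genes. Leaving out transgenic TAC array 1 gave a transgenic response of -1.40. That compares 1 array with 1 and borrows its spread from the wild-type TAC pair.

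These limits attach to the Hspa1a value. Its other probes were dim, reading 62.0 to 99.8 and 47.4 to 62.9 against an array median near 56.3, and the brighter of them gave a genotype difference of only 0.16 ± 0.13 across both surgeries. Both dim probes also had their highest reading on the transgenic sham array. By the dimmest probe, however, the wild-type sham array came next and lay close below, so that probe showed little sham difference. The log2 values of the bright and the middle probe correlated at 0.84 over the 6 arrays. Because Hspa1a and Hspa1b are near-identical copies, which of them each probe reads was not tested.

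Hspa1b itself was measured near the array median, at 53.7 on the wild-type sham array, 64.6 and 59.2 on the wild-type TAC arrays, 73.0 on the transgenic sham array, and 68.3 and 62.1 on the transgenic TAC arrays. Transgenic sham was again the highest, and the TAC arrays of the 2 genotypes overlapped. The genotype difference was 0.20 ± 0.11 (adjusted p = 0.542), and a second probe read 39.4 to 46.2, below the median on every array.

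Dnajb1, the J protein partner of Hsp70, followed Hspa1a in part. Its readings were 1747 on the wild-type sham array, 2118 and 1357 on the wild-type TAC arrays, 3590 on the transgenic sham array, and 2576 and 1715 on the transgenic TAC arrays. The transgenic sham array was the highest by a log2 gap of 0.48, and the TAC arrays of the 2 genotypes overlapped. The sham pair, in which genotype and Xist level cannot be told apart, differed 2.05-fold. The difference across both surgeries was 0.55 ± 0.23 (adjusted p = 0.402). Without the transgenic sham array that difference was 0.31, a value that then comes from the TAC arrays alone. It was -0.01 without the 2 arrays with low Xist and 0.79 without transgenic TAC array 2. Arrays within a TAC pair stood well apart: array 2 minus array 1 was -0.64 in wild type and -0.59 in transgenic hearts. Against its sham array, TAC gave -0.77 ± 0.33 in transgenic hearts (adjusted p = 0.991) and -0.04 ± 0.33 in wild type.

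Hsph1, the Hsp110 nucleotide exchange factor, read 1826 on the wild-type sham array, 1330 and 1905 on the wild-type TAC arrays, 2226 on the transgenic sham array, and 1522 and 2162 on the transgenic TAC arrays. Here TAC array 2 was above TAC array 1 in both genotypes, by 0.52 and 0.51, the opposite order to Dnajb1. These gaps between arrays of 1 group exceeded the genotype difference of 0.22 ± 0.18 (adjusted p = 0.706).

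Hspa8, the constitutive Hsp70, was bright and even by its brightest probe, at 11915 on the wild-type sham array, 12534 and 12746 on the wild-type TAC arrays, 14390 on the transgenic sham array, and 12566 and 14973 on the transgenic TAC arrays. Its range over the 6 arrays was 0.33 on the log2 scale. The genotype difference was 0.17 ± 0.10 (adjusted p = 0.577) and the TAC difference 0.01 ± 0.10 (adjusted p = 0.989).

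Its other probes moved in different directions. One read 2324, 2050 and 2402 on the wild-type sham and TAC arrays, 4290 on the transgenic sham array, and 2060 and 4488 on the transgenic TAC arrays, and correlated with the brightest probe at 0.94 over 6 arrays. The other read 2546, 3583 and 1741 on the wild-type arrays in the same order, then 3421 on the transgenic sham array and 6477 and 1510 on the transgenic TAC arrays, a correlation of -0.37 with the brightest. By the last probe the 2 transgenic TAC arrays were the highest and the lowest of all 6, while by the one before it transgenic TAC array 1 lay with the wild-type arrays and array 2 was the highest. With the median over the 3 probes in place of the brightest, the genotype difference was 0.84 (adjusted p = 0.130). Tested on their own, the probes gave 0.17 ± 0.10, 0.60 ± 0.26 and 0.36 ± 0.48, in the order given above. The median value thus exceeded that of every probe, since which of the 2 dimmer probes it took changed from array to array. Hspa8 has many processed copies in the mouse genome, and which transcripts each probe reads was not tested.

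**Figure D1:**
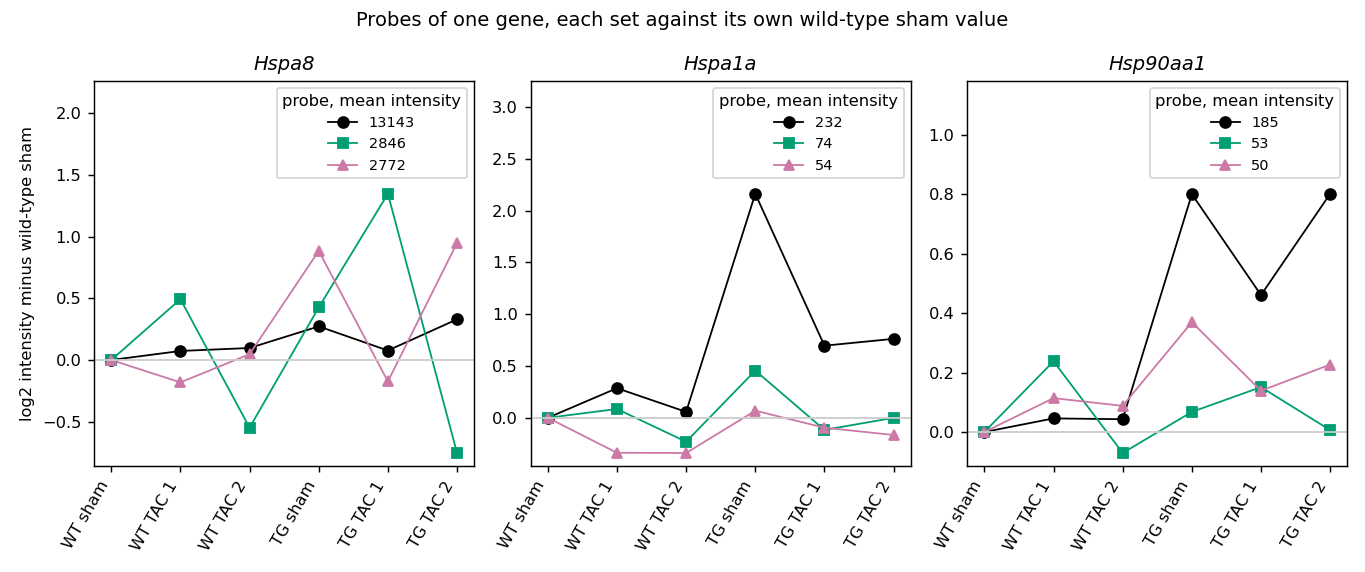
Log2 intensity of each probe of Hspa8, Hspa1a and Hsp90aa1 on the 6 arrays, minus the same probe's value on the wild-type sham array; lines join the readings of 1 probe, and the legend gives each probe's mean intensity. The 2 dimmer Hspa8 probes part on the transgenic TAC arrays, and the bright probes of Hspa1a and Hsp90aa1 move more than the dim ones.

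Hsp90aa1, the inducible cytosolic Hsp90, separated the genotypes by its brightest probe, with little spread only among the wild-type arrays. It read 144 on the wild-type sham array, 149 and 148 on the wild-type TAC arrays, 251 on the transgenic sham array, and 198 and 251 on the transgenic TAC arrays. Wild-type arrays were nearly the same, the transgenic TAC arrays stood 0.34 apart in log2, and each transgenic array was above each wild-type array. The difference was 0.66 ± 0.15 (95% interval 0.32 to 1.00), or 1.58-fold, and missed the threshold (adjusted p = 0.103). Without transgenic TAC array 1 it was 0.78. After TAC the difference was 0.59 ± 0.21 (adjusted p = 0.710). TAC itself gave 0.04 ± 0.26 in wild-type and -0.17 ± 0.26 in transgenic hearts. Its other probes read 48.0 to 59.5 and 45.2 to 58.4, near the array median, and the median over the 3 probes gave a genotype difference of 0.09.

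**Figure D2:**
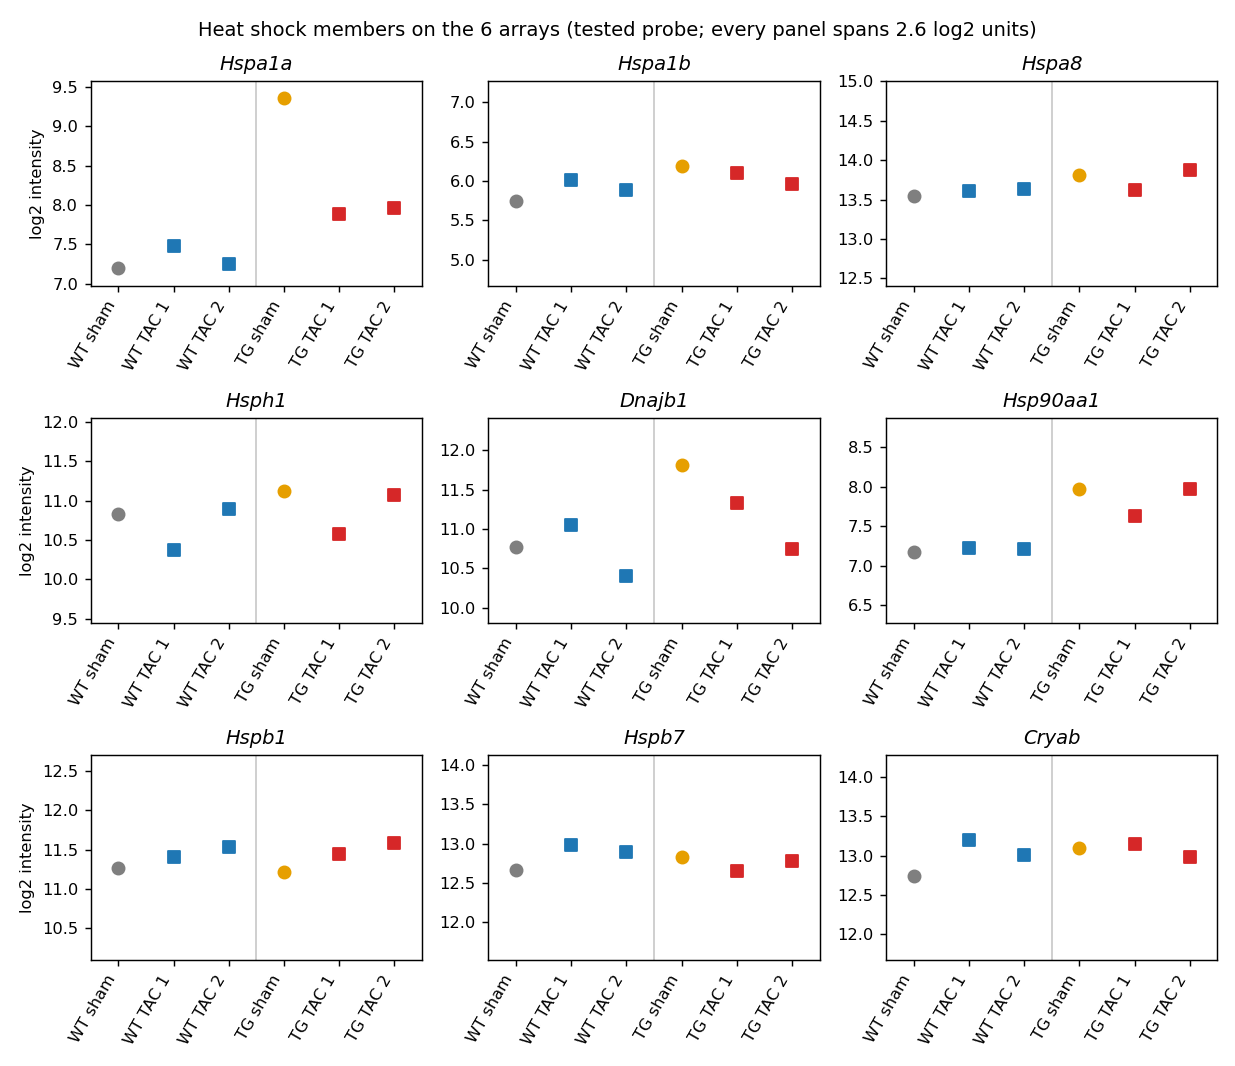
Log2 intensity of the brightest probe of each of the 9 members on the 6 arrays, by genotype (WT wild type, TG transgenic) and surgery; each point is 1 array and every panel spans the same log2 distance. Hspa1a and Hsp90aa1 have all transgenic points above all wild-type points, Dnajb1 and Hsph1 have widely split TAC pairs, and Hspb1 has its TAC points above its sham points.

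Among the small heat shock proteins, Hspb1 (Hsp25 in the mouse), an actin-binding chaperone, read 2467 on the wild-type sham array, 2710 and 2978 on the wild-type TAC arrays, 2378 on the transgenic sham array, and 2792 and 3068 on the transgenic TAC arrays. All 4 TAC arrays were above both sham arrays, and the genotypes interleaved. The TAC difference was 0.25 ± 0.12 (95% interval -0.02 to 0.52; adjusted p = 0.558), with 0.20 in wild-type and 0.30 in transgenic hearts. The genotype difference was 0.01 ± 0.11 (95% interval -0.24 to 0.27). A second Hspb1 probe read 39.0 to 43.5, below the median on every array, and correlated with the tested probe at 0.09. Markers of some cell types were also higher with TAC over both genotypes. These were 5 of 5 fibroblast markers by a median of 0.26, 3 of 3 endothelial markers by 0.24 and 3 of 3 atrial markers by 1.47. The 3 smooth muscle markers gave 0.07, with 3 of 3 higher in wild-type (0.51) and 3 of 3 lower in transgenic hearts (-0.28). Cardiomyocyte markers were 2 of 6 higher and 4 lower with TAC (median -0.15), and 3 of 3 erythroid markers were lower (-0.04). None of these markers passed the test, and their part in the Hspb1 value was not tested.

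Cryab, alpha-B crystallin, which binds desmin and titin, read 6880 on the wild-type sham array, 9435 and 8264 on the wild-type TAC arrays, 8802 on the transgenic sham array, and 9075 and 8107 on the transgenic TAC arrays. The wild-type sham array was the lowest and the other 5 overlapped. In wild type TAC gave 0.36 ± 0.17 (95% interval -0.02 to 0.74; adjusted p = 1.00), in transgenic hearts -0.04 ± 0.17.

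Hspb7, the cardiac small heat shock protein that binds filamin C, read 6521 on the wild-type sham array, 8118 and 7618 on the wild-type TAC arrays, 7310 on the transgenic sham array, and 6457 and 7050 on the transgenic TAC arrays. It was the 1 member lower in transgenic hearts across both surgeries, at -0.09 ± 0.11, and after TAC both transgenic arrays were below both wild-type arrays (-0.22 ± 0.13; adjusted p = 0.999). Both Cryab and Hspb7 were highest on wild-type TAC array 1, which was the highest array for 13.2% of all genes and had the highest summed atrial markers (7715); the part of that in these values was not tested.

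As a group, 8 of 9 members were higher in transgenic hearts across both surgeries, with a median log2 difference of 0.20 beside -0.01 over all genes, of which 47.6% were higher. None passed the test, against 0.949% of all genes tested (106), and 3 (Hspa1a, Hsp90aa1 and Dnajb1) had an unadjusted p under 0.05, against 11.5% of all genes. All transgenic arrays lay above all wild-type arrays for 2 of 9, against 7.59% of all genes. In the sham pair 8 of 9 members were higher in the transgenic heart, with a median of 0.36 beside -0.02 over all genes, of which 47.1% were higher. Hspa1a and Dnajb1 passed 2-fold there, which 0.663% of all genes did upward. The sham arrays also differed in Xist level, so genotype and Xist level cannot be told apart in these sham values. The transgenic sham array was the highest of all 6 for 4 members (Hspa1a, Hspa1b, Dnajb1 and Hsph1), against 16.4% of all genes. After TAC 7 of 9 were higher, with a median of 0.12 beside -0.00 over all genes, of which 49.2% were higher, and 0 passed (0.206% of all genes). Arrays did not overlap for 3 of 9 (Hspa1a and Hsp90aa1 higher, Hspb7 lower), against 32.3% of all genes, a share near the background. Because the members were chosen with earlier results of these data known, member shares here and for surgery below are descriptions and not tests.

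**Figure D3:**
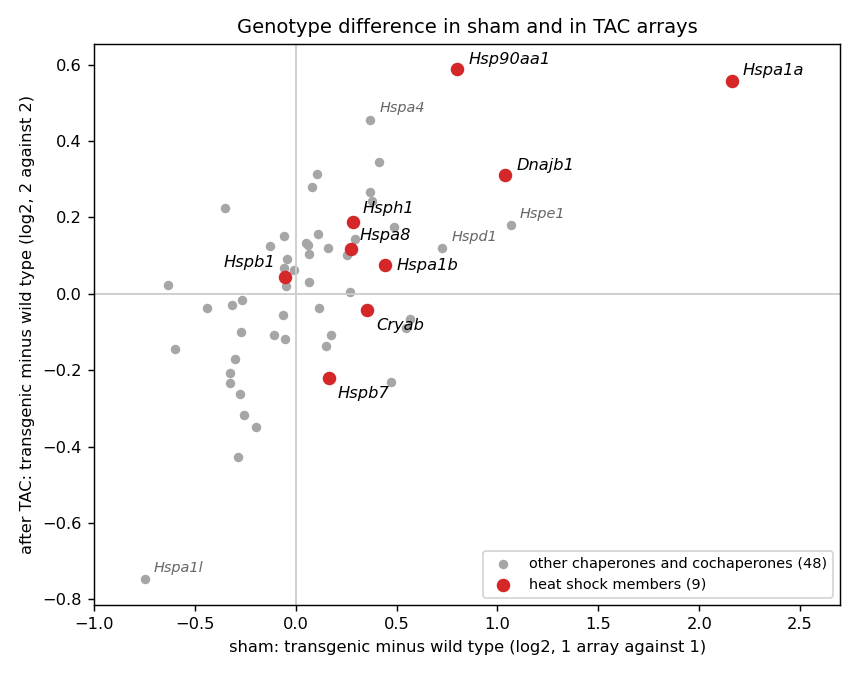
Log2 difference of transgenic minus wild type in the sham pair (horizontal, 1 array against 1) and after TAC (vertical, 2 against 2) for the 9 members in red and 48 other chaperones and cochaperones in grey. Hspa1a, Dnajb1 and Hsp90aa1 lie to the upper right and Hspa1l to the lower left; both axes use different arrays.

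For surgery, 5 members were higher and 4 lower with TAC over both genotypes, with a median of 0.01 beside -0.01 over all genes, of which 48.6% were higher, and 0 passed (0.00895% of all genes, 1 gene). The values were led by Hspa1a at -0.63 ± 0.31 (limma, adjusted p = 0.562) and Dnajb1 at -0.41 ± 0.24 (adjusted p = 0.655). Without the transgenic sham array they were 0.17 and -0.04. These are the wild-type responses alone, because transgenic TAC arrays then have no sham array to be set against. Arrays did not overlap for 1 member, Hspb1, against 16.5% of all genes. In wild-type hearts 7 of 9 were higher with TAC (median 0.17 beside -0.01 over all genes, of which 47.1% were higher) and both TAC arrays were above the sham array for those 7, against 34.4% of all genes. In transgenic hearts 8 of 9 were lower (median -0.17 beside 0.01 over all genes, of which 50.9% were higher), with both TAC arrays below the sham array for 5, against 30% of all genes, and above it for 1, Hspb1, against 31.1%. No gene passed limma's test in either genotype (0% of all genes); at an unadjusted p under 0.05 there were 398 genes (3.56%) in wild type with 0 members, and 543 (4.86%) in transgenic hearts with Hspa1a and Dnajb1 among them. For Hspa1a, Hspa1b and Hspb7 TAC arrays lay above the sham array in wild type and below it in transgenic hearts; 14% of all genes had responses of opposite sign in this way, in either order. The difference of responses passed for 0% of all genes (limma; 183 genes at an unadjusted p under 0.05, Hspa1a the 1 member). Both contrasts within a genotype rest on 1 sham array. The transgenic sham array had low Xist and the transgenic TAC arrays did not, so surgery and Xist level cannot be told apart in transgenic hearts.

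**Figure D4:**
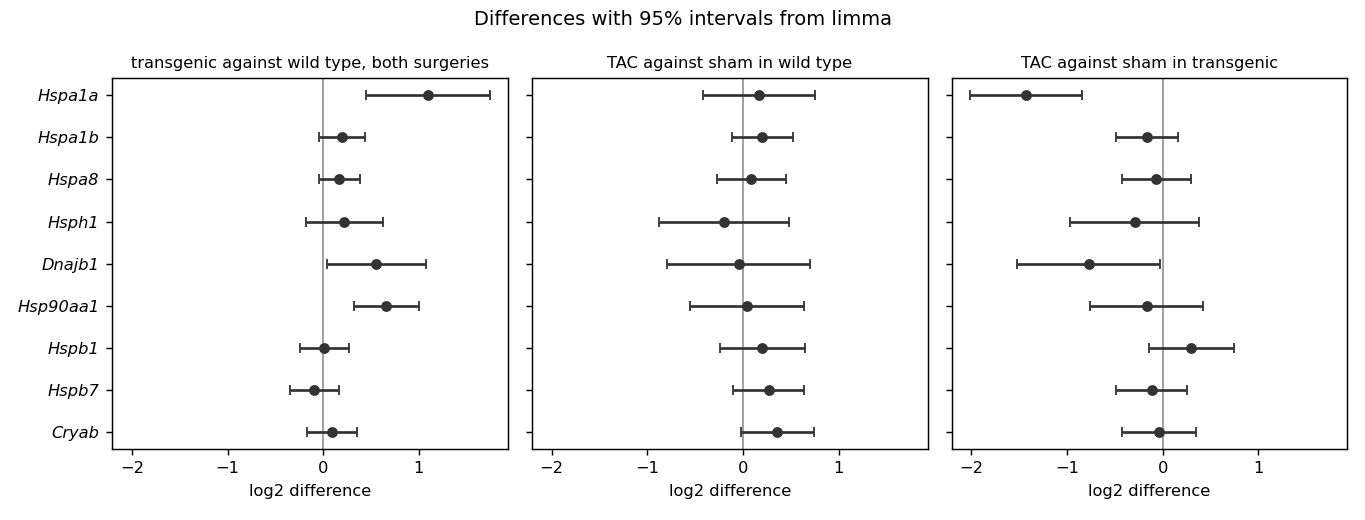
Log2 differences of the 9 members, as points with 95% intervals from limma, for genotype across both surgeries and for TAC against sham in each genotype. The genotype intervals of Hspa1a, Hsp90aa1 and Dnajb1 exclude 0, as do the TAC intervals of Hspa1a and Dnajb1 in transgenic hearts; no member's adjusted p was under 0.05.

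Over the 6 arrays, log2 levels of Hspa1a correlated with those of Dnajb1 at 0.85, of Hspa1b at 0.82, of Hsp90aa1 at 0.82 and of Hspa8 at 0.69, and with Hspb1 at -0.44. Hsp90aa1 and Hspa8 correlated at 0.90, Cryab and Hspa1b at 0.81. These describe 6 arrays, and single arrays weigh in them. Hspa1a, Hspa1b and Dnajb1 were highest on the transgenic sham array, Hsp90aa1 and Hspa8 on transgenic TAC array 2. Cryab and Hspa1b were both lowest on the wild-type sham array. Among 4531 genes that varied by an SD of at least 0.2, those most like Hspa1a were Dync2h1 (r = 0.97), Tnnt1 (0.96), Trnp1 (0.96), Cox20 (0.96) and Espn (0.95). Most like Hspb1 were Isg15 (0.96), Fap (0.96), Uba7 (0.95), Mbd4 (0.95) and Tspan17 (0.93). Most like Cryab were Cdon (0.98), Adamts1 (0.95), Nap1l1 (0.94), Pcbp1 (0.94) and Tfrc (0.94), all by Pearson's r over 6 arrays.

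The wider chaperone system gave a background for these members. Of 55 other chaperones and cochaperones 48 were tested; 28 were higher and 20 lower in transgenic hearts (median 0.04), 20 higher and 28 lower with TAC (median -0.03), and 0 passed in any comparison with a test. In the sham pair 24 were higher and 24 lower (median 0.02), and 1 of them, Hspe1, passed 2-fold with a log2 difference of 1.06. The chaperonins were the most uniform, with 8 of 8 tested higher in transgenic hearts by a median of 0.20. Hspe1 and Hspd1, the mitochondrial chaperonin pair, were highest on the transgenic sham array like Hspa1a, Hspd1 at log2 10.80, 10.73 and 10.88 on the wild-type sham and TAC arrays and 11.53, 10.99 and 10.86 on the transgenic sham and TAC arrays. Their genotype differences were 0.48 ± 0.22 for Hspe1 and 0.32 ± 0.15 for Hspd1, and their TAC differences in transgenic hearts -0.92 ± 0.29 and -0.61 ± 0.20. Among the other Hsp70 and Hsp110 proteins 4 of 7 were higher in transgenic hearts, among other J proteins 5 of 8, among Hsp70 cochaperones 5 of 10, among Hsp90 cochaperones with the mitochondrial Hsp90 4 of 11, and among other small heat shock proteins 2 of 4. All 8 other J proteins were lower with TAC in wild-type hearts (median -0.22), with 0 past the test. Of all genes 47.1% were higher in that comparison. Each of the 8 values is measured from the 1 wild-type sham array, and 7 of the 8 also read lower on the transgenic sham array.

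Hspa1a lies between Hspa1b and Hspa1l on chromosome 17. Hspa1l, a germ-cell Hsp70, read log2 7.93 on the wild-type sham array, 8.76 and 8.46 on the wild-type TAC arrays, 7.19 on the transgenic sham array, and 7.64 and 8.08 on the transgenic TAC arrays. It was lower in transgenic hearts by a log2 difference of -0.75 ± 0.17 (adjusted p = 0.102) and higher with TAC by 0.67 ± 0.18 (adjusted p = 0.339), so on the transgenic sham array it was lowest where Hspa1a was highest. Hspb2, the small heat shock gene beside Cryab on chromosome 9, gave -0.30 ± 0.13 in transgenic hearts.

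The heat shock factors Hsf2 and Hsf4 and the binding protein Hsbp1, 3 of 4 listed genes with a probe, differed by -0.11 to -0.00 between genotypes and 0 passed. Hsf1, the other listed gene, had no probe and was not measured here. Of 8 endoplasmic reticulum chaperones tested 6 were higher in transgenic hearts (median 0.14) and 0 passed. The cold-inducible Cirbp and Rbm3 gave 1 higher and 1 lower, with 0 past. Among 8 immediate early genes tested, which respond within minutes to handling and to signals, Egr1 rose in transgenic hearts by 0.97 ± 0.17 (adjusted p = 0.0409) and the other 7 did not pass. Fos read log2 6.17, 6.73 and 6.11 on the wild-type sham and TAC arrays and 7.80, 8.29 and 6.67 on the transgenic ones. Its highest reading was on transgenic TAC array 1 and the next on the transgenic sham array. In the sham pair 3 of the 8 immediate early genes were higher in the transgenic heart, 2 of them 2-fold, and 5 were lower (median -0.04). Of 9 clock genes tested 7 were lower in transgenic hearts (median -0.39), led by Ciart at -1.01 ± 0.27, and 0 passed. The time of day of collection is not in the labels, and the part of these genes in the Hspa1a difference was not tested.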

How the data were processed

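For every probe the deposited table gives a linear, normalized intensity on each of 6 arrays. Per the labels, Trizol RNA was cleaned, DNase-treated and labelled with an Illumina TotalPrep kit; the sources used here do not give the authors' normalization method. Array medians were nearly equal. No scanner values or detection calls were used. The number of arrays limits the precision. Intensities under 32 (12 values) were set to 32 and log2 was taken. Gene symbols came from the platform annotation: 34885 probes had 1 symbol, 18 several and 10378 none. Each gene was represented by its brightest probe by mean log2 level, and genes above the 50th percentile of probes were tested.

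All fits used limma 3.58.1 in R 4.3.3 (lmFit, eBayes with an intensity trend) with Benjamini-Hochberg adjustment over 11167 genes and a threshold of 0.05. Comparisons over both surgeries or both genotypes used an additive model of surgery and genotype; the others used a model of the 4 groups, in which each lone sham array is assumed to vary like the TAC pairs. The sham pair has no test. Alternatives changed the choice of probe, filter, trend, centring, background, Xist level, replicate block and arrays included.

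Named genes were all members, up to 2 genes of smallest p per related list and comparison, and the 5 genes most like Hspa1a, Hspb1 and Cryab, from which examples are given. The members and lists were chosen with earlier results of these data known.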

Additional observations from a re-analysis of the deposited data

Results flagged for a closer look

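For 3 members both wild-type TAC arrays lay above the wild-type sham array while both transgenic TAC arrays lay below the transgenic sham array, which 14% of all genes tested also did, either way round. The test of the difference between the responses did not pass for any of them (limma, adjusted p = 1.00). Hspa1a had wild-type changes of 0.29 and 0.06 and transgenic changes of -1.47 and -1.40, a difference of -1.60 ± 0.36 (log2 ± SE). Hspa1b had 0.27 and 0.14 against -0.10 and -0.23, a difference of -0.37 ± 0.20. Hspb7 had 0.32 and 0.22 against -0.18 and -0.05, a difference of -0.39 ± 0.23. Each response is measured from 1 sham array, so an error in that array enters both of its values. In transgenic hearts the sham array also had low Xist and the TAC arrays did not, so surgery and Xist level cannot be told apart.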

How the results depend on the processing

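Of 786 member values under alternatives, 742 kept their direction and 44 turned it with no call on either side. Member calls came only with 1 transgenic TAC array left out, for Hspa1a, Hsp90aa1 and Dnajb1 at the values given above. In those fits more genes passed over all genes as well. The Hspa1a genotype difference ran from 0.16 (median over probes) to 1.31. Counts of genes past the test moved more. For genotype over both surgeries (106 genes) they were 24 (without either sham array) to 473 (without transgenic TAC array 2) with 1 array left out, 30 and 32 without wild-type TAC arrays 1 and 2, 51 with the median over probes, 44 with a filter at the 75th percentile, 51 with Xist as a covariate and 0 without both arrays with low Xist, and members past were 0 to 1. For genotype after TAC (23 genes) they were 0 (without wild-type TAC array 2) to 189 (without transgenic TAC array 2), 2 without wild-type TAC array 1, 84 without transgenic TAC array 1, 5 with the median over probes, 9 with every probe tested, 38 with no filter, 11 with the 75th percentile, 8 with no trend, 8 with centred arrays, and 0 with Xist as a covariate or without both low arrays. For TAC over both genotypes (1 gene) they were 0 to 37 (without transgenic TAC array 1) with 1 array left out, 2 without transgenic TAC array 2, 2 with either filter change, and 0 with no trend, with Xist as a covariate or without both low arrays. In wild type (0 genes) TAC gave 0 to 11 (without either transgenic TAC array), 5 with no filter and 11 with the compared groups alone; in transgenic hearts (0 genes) it gave 0 to 239 (without transgenic TAC array 1), 1 with no filter and 1 with the compared groups alone, with 0 to 1 members past; the difference of responses gave 0 to 1 (without wild-type TAC array 1).

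With the replicate block, the genotype comparison after TAC gave 61 genes past the test instead of 23. Same-numbered TAC arrays did not deviate together (correlation -0.03 over 11167 genes), and the sham arrays cannot be paired, so the numbers were not treated as pairs. The contrasts within transgenic hearts could not be fitted without both arrays with low Xist, nor any contrast without its only sham array.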
